A study of Homo sapiens with 24 samples.

Results

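CTRL cells treated with doxycycline for 48 h were compared with CTRL cells at 0 h, in 3 libraries each, which are 6 of the 24 RNA-sequencing libraries of the study. The 6 libraries were chosen by the cell line and time in their labels, without use of any measured value. CTRL cells are MIA PaCa-2 cells, a line grown from a human pancreatic carcinoma, that carry a lentiviral Tet-On vector without the CEBPD cDNA, together with the red fluorescent marker mCherry. Both groups therefore hold the vector and the marker, and both were grown in DMEM with serum. The 48 h group received 2 µg/mL doxycycline, the drug that switches on Tet-On vectors. The labels list the same dose at 0 h, whereas the study describes the 0 h cells as untreated, which was taken as correct here. The study used this line as the reference for changes that doxycycline itself may bring about, and the comparison shows which transcripts changed without the CEBPD cDNA. Doxycycline and time in culture changed together between the 2 groups, so that their effects cannot be told apart here. CTRL cells at 8 and 24 h of doxycycline, and a C/EBPδ-inducible line of MIA PaCa-2 cells (a pool of 3 clones with the CEBPD cDNA and mVenus) at 0 and 48 h, are used only to place the 48 h values.

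Doxycycline belongs to the tetracyclines, antibiotics that block the bacterial ribosome and, in animal cells, the related ribosome of mitochondria. Cells answer several kinds of stress, among them amino acid shortage and mitochondrial stress, by phosphorylating the translation factor eIF2α. General translation then slows while the transcription factor ATF4 is made, which switches on genes for amino acid uptake and synthesis and for charging of tRNAs, together called the integrated stress response. Cultured cancer cells also change with time after seeding, as they use up nutrients, fill the well and divide at another rate, and transcripts for histones, DNA replication and mitosis follow the share of dividing cells.

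The libraries were made from total RNA after removal of ribosomal RNA, so that transcripts without a poly(A) tail, such as most histone mRNAs, were counted too. The total per library was 17328881 to 19943792 counts at 0 h and 16976693 to 19511963 counts at 48 h. Levels are given as CPM, the usual per-library scaling of counts to a common total, after TMM normalization, and 3 counts corresponded to 0.157 to 0.179 CPM at 0 h and 0.150 to 0.176 CPM at 48 h, a limit that covers counting error only. The replicates were wells seeded in parallel, so that p-values measure the spread between these wells. Replicate 1 at 48 h stood most apart from the other wells of its group, with a chi-square per gene of 5.47 to 8.36, against 3.41 between the other 48 h wells and 2.83 to 3.51 among the 0 h wells. VIM (6891, 7001 and 6911 CPM at 0 h and 6825, 6796 and 6982 CPM at 48 h) and KRT18 (1129.9, 1174 and 1157 CPM at 0 h and 899, 896 and 896 CPM at 48 h) had high counts in every library, and EPCAM stayed at 1.82 CPM or lower, so that of the epithelial markers only the keratins were prominent. CDKN2A and MTAP, whose locus is lost in this line, stayed at 0.179 CPM or lower in 5 of the 6 libraries and reached 0.895 and 1.00 CPM in replicate 3 at 48 h. The defining immune markers PTPRC and CD3E were at 0 counts in all 6 libraries, and the 6 immune markers summed to 3.60 to 4.93 CPM at 0 h and 3.54 to 20.1 CPM at 48 h, the top value coming from LYZ in replicate 2 at 48 h. Of 6 fibroblast markers only COL1A2 (632, 639.5 and 667 CPM at 0 h and 688, 593 and 665 CPM at 48 h) had more than 1.10 CPM, and the 5 endothelial and 6 pancreatic acinar and islet markers summed to 0.470 CPM or less in every library. The part of these traces in any result was not tested, and counts of changed genes without each library are given where they matter.

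Of 15294 genes tested, 4583 (30.0%) differed between 48 h and 0 h at a false discovery rate (FDR) of 0.01 in edgeR's quasi-likelihood test, 2328 (15.2%) higher and 2255 (14.7%) lower at 48 h. Counts of list members are to be read against these 2 shares. With the study's own kind of test, an analysis of variance of each gene, 1659 genes were called, and 1775 were called when changes were tested against a fold of 1.2. Most of the changes were small. The median absolute log2 fold change among the 4583 genes was 0.46, and changes of more than 1.5-fold were found for 1104 genes (7.22%) in the higher direction and 451 (2.95%) in the lower direction, and those of more than 2-fold for 461 (3.01%) and 95 (0.621%). For 8055 genes (52.7%), every library of one group was above every library of the other. Without TMM scaling, 67.0% of the called genes were higher instead of 50.8%, because the TMM factors were 0.960 to 0.965 at 0 h and 1.00 to 1.03 at 48 h, so that single small changes depend on the scaling. Without replicate 3 at 48 h 3325 genes were called, and without replicate 1 at 48 h 5279. Called genes were mainly protein-coding, with 2164 higher and 2072 lower of 11722 tested, while 106 of 1543 long noncoding RNAs were higher and 79 lower. Exons that overlap a gene on the other strand were present in 6048 of 15119 annotated genes tested (40.0%), and since the strand setting of the counting is not given in the sources used here, their values are uncertain. Among the genes given below with a value for every library, this holds for ACTG1, ALDOC, BMF, CARS1, CEBPB, ENOX1, HSPA8, ID2, INHBE, KRT18, LONP1, MCM7, MYC, SLC7A11, TAGLN, VEGFA, VIM and WARS1.

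**Figure D1:**
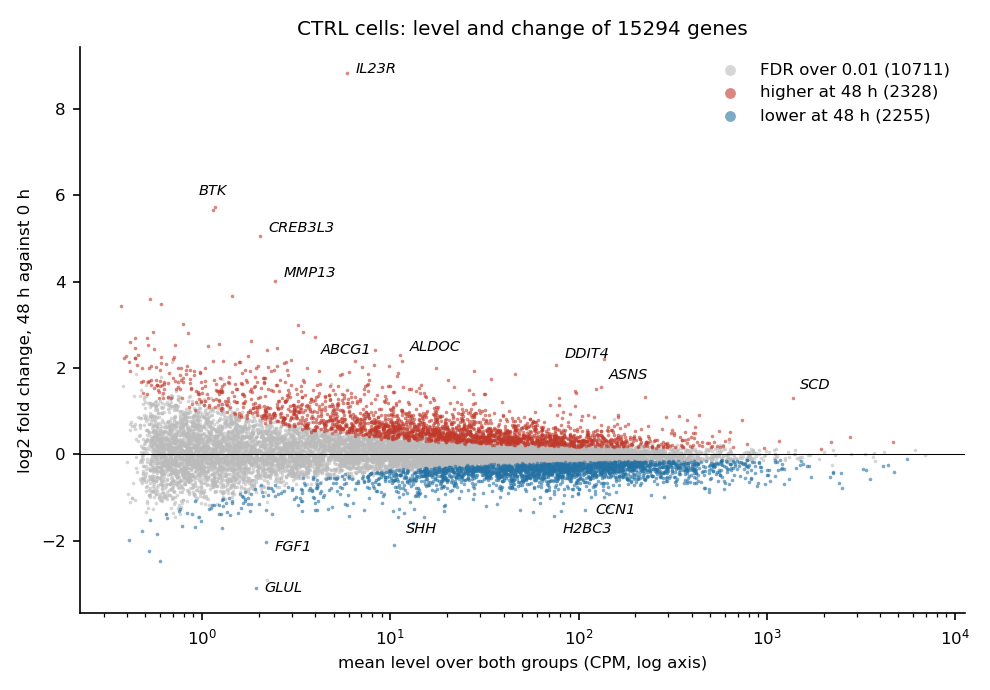
Level and change of the 15294 genes tested in CTRL cells. The x axis is the mean level over both groups in CPM on a log axis and the y axis the log2 fold change of 48 h against 0 h, with genes called at an FDR of 0.01 in red (2328 higher) and blue (2255 lower). The largest increases lay at low to middle levels, whereas SCD combined a high level with a change of 1.31, and fitted changes of genes near 0 counts at 0 h (IL23R, BTK, ENOX1 and CREB3L3) depend on the prior count.

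CEBPD itself, the gene that the vector of the other line carries, did not pass the test in CTRL cells. Its values were 4.20, 3.71 and 3.92 CPM at 0 h and 3.29, 4.34 and 4.42 CPM at 48 h (log2 fold change 0.02 ± 0.15 (SE), adjusted p = 0.942), and the 2 groups overlapped. Among the other C/EBP factors, CEBPB (0.61), CEBPG (0.68) and DDIT3 (1.06), the latter also known as CHOP, rose, while CEBPA (-0.18) did not pass the test. All 3 that rose had their highest mean at 8 h. CEBPB had 24.3, 20.9 and 24.2 CPM at 0 h and 34.1, 35.05 and 37.1 CPM at 48 h, with a mean of 43.6 CPM at 8 h and 30.8 CPM at 24 h.

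Genes of the integrated stress response rose almost throughout. Of 25 genes listed for it, 23 were tested, 20 rose, 2 fell and 1 did not pass the test, with a median log2 fold change of 0.96 against 0.01 over all genes tested. ATF4, the central transcription factor of the response (ENSG00000128272, chromosome 22, 39519695 to 39522683), had 110.4, 115 and 117 CPM at 0 h and 206, 204 and 216 CPM at 48 h (log2 fold change 0.87 ± 0.047 (SE), adjusted p = 1.01e-07). All 48 h libraries lay above all 0 h libraries, and the mean was higher still at 8 h (259.6 CPM at 8 h and 191 CPM at 24 h). CHAC1, which degrades glutathione and is a sensitive ATF4 target (ENSG00000128965, chromosome 15, 40952962 to 40956512), had 2.35, 1.97 and 2.72 CPM at 0 h and 9.72, 10.6 and 11.7 CPM at 48 h (log2 fold change 2.17 ± 0.14 (SE), adjusted p = 3.73e-07), after 19.2 CPM at 8 h and 10.2 CPM at 24 h. ASNS, the asparagine synthetase (ENSG00000070669, chromosome 7, 97851677 to 97872542), had 65.5, 70.5 and 63.99 CPM at 0 h and 182, 205 and 201 CPM at 48 h (log2 fold change 1.55 ± 0.058 (SE), adjusted p = 7.20e-09). Its level was close to that at 8 h from then on, with means of 174 CPM at 8 h and 174 CPM at 24 h.

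The remaining members that rose included regulators and enzymes. Among regulators, DDIT4, an inhibitor of mTORC1 signalling, went from 28.7, 28.2 and 29.9 to 121, 119.6 and 128 CPM (log2 fold change 2.08 ± 0.057 (SE), adjusted p = 5.63e-10), a change in which no library of one group reached the other. The AP-1 repressor JDP2 (2.00), the pseudokinase TRIB3 (1.39) and SESN2 (0.96), which restrains mTORC1 when leucine is low, rose as well. Among enzymes, CBS (1.52) and CTH (0.96) of the transsulfuration pathway, PCK2 (1.31), the mitochondrial phosphoenolpyruvate carboxykinase, and GPT2 (1.13), an alanine transaminase, were higher. Both members that fell, PPP1R15A (-0.61) and ATF5 (-0.34), respectively encode the subunit that directs eIF2α dephosphorylation and a relative of ATF4. GDF15, a secreted stress hormone, did not pass the test (0.672, 0.838 and 0.418 CPM at 0 h and 0.848, 1.70 and 0.527 CPM at 48 h, log2 fold change 0.65 ± 0.43 (SE), adjusted p = 0.247).

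Genes for serine synthesis and one-carbon metabolism moved in the same direction in part. Of 14 tested, 7 rose and 1 fell (median 0.25). The 3 serine synthesis enzymes PHGDH (1.51), PSAT1 (1.32) and PSPH (0.64) all rose, and PHGDH, which catalyses the first step, had 61.3, 63.1 and 67.3 CPM at 0 h and 184, 179 and 186 CPM at 48 h (log2 fold change 1.51 ± 0.052 (SE), adjusted p = 5.84e-09), without overlap of the groups. The mitochondrial folate enzymes ALDH1L2 (1.65), MTHFD2 (0.49), SHMT2 (0.45) and MTHFD1L (0.30) were higher. The cytosolic folate enzyme MTHFD1 (-0.08) and ALDH18A1 (0.05), which acts in proline synthesis, did not pass the test. The member that fell was TYMS (-0.45), the thymidylate synthase used in DNA replication.

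Of 12 amino acid transporters tested, 6 rose and 2 fell (median 0.16). SLC7A11, the cystine-glutamate exchanger (ENSG00000151012, chromosome 4, 138164097 to 138242349), had 11.9, 11.3 and 11.4 CPM at 0 h and 37.3, 47.2 and 47.8 CPM at 48 h (log2 fold change 1.92 ± 0.10 (SE), adjusted p = 6.17e-08), all 48 h libraries being above those at 0 h. Its mean was highest early (75.6 CPM at 8 h and 32.96 CPM at 24 h). SLC1A4 (1.49), which carries alanine, serine and cysteine, SLC43A1 (1.37), SLC6A9 (0.88), a glycine transporter, and SLC7A5 (0.49), which brings in large neutral amino acids, rose. The glutamine carriers SLC1A5 (-0.09), SLC38A1 (0.06) and SLC38A2 (-0.07) did not pass the test, and SLC7A6 (-0.33) was one of the 2 that fell. Of the 6 that rose, 5 had their highest mean of the time course at 8 h.

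The cytosolic aminoacyl-tRNA synthetases, which join each amino acid to its tRNA, split in 2. Of 20, 12 rose and 5 fell (median 0.44). CARS1, which charges cysteine, had 46.2, 52.6 and 48.4 CPM at 0 h and 108, 108 and 110.4 CPM at 48 h (log2 fold change 1.15 ± 0.058 (SE), adjusted p = 5.75e-08) and WARS1, which charges tryptophan, 540.3, 548 and 526 CPM at 0 h and 943, 941 and 919 CPM at 48 h (log2 fold change 0.79 ± 0.034 (SE), adjusted p = 2.06e-08). In both, every 48 h library was above every 0 h library. The others that rose were GARS1 (0.92), AARS1 (0.89), YARS1 (0.80), MARS1 (0.70), EPRS1 (0.54), SARS1 (0.54), IARS1 (0.51), TARS1 (0.50), NARS1 (0.39) and LARS1 (0.34). Those that fell included FARSA (-0.54), KARS1 (-0.30) and RARS1 (-0.27), which charge phenylalanine, lysine and arginine. Of the 12 that rose, 10 had their highest mean at 48 h.

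In the RefSeq promoters of GRCh38.p14, taken from 250 bases before to 50 bases after the gene start, the letters TGATGNAA, the composite element bound by ATF4 with a C/EBP factor, were searched on both strands. The RefSeq start can differ from that of the gene positions printed above, which come from GENCODE. The stretches of ASNS and CHAC1 below therefore lie inside the positions printed for these genes. They were found in 6 of the 10 synthetases that rose and have a promoter there (60.0%), in none of the 5 that fell, and in 3 of 16 integrated stress response genes that rose (18.8%). The share was 1.54% among promoters of all genes tested and 3.67% among all 27305 promoters. A match describes the letters in this window and is not a site shown to be bound. Stretches are shown only where the element lies wholly before the RefSeq gene start, for members whose values are given here. The counts above cover the whole window, so that they also hold matches that reach past the start. The same letters stand in genes of different roles. The stretches are written 5′ to 3′ along the gene's strand with the element in capitals (as its reverse complement in CHAC1, AARS1 and IARS1).
ASNS (chr7:97872453-97872492, minus strand): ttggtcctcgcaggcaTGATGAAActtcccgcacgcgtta
CHAC1 (chr15:40953246-40953285, plus strand): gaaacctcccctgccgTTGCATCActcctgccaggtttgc
MTHFD1L (chr6:150866341-150866380, plus strand): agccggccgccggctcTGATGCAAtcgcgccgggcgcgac
AARS1 (chr16:70289670-70289709, minus strand): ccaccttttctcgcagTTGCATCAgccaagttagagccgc
IARS1 (chr9:92293698-92293726, minus strand): ccgcattttcagcgcgTTGCATCAcctcc

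**Figure D2:**
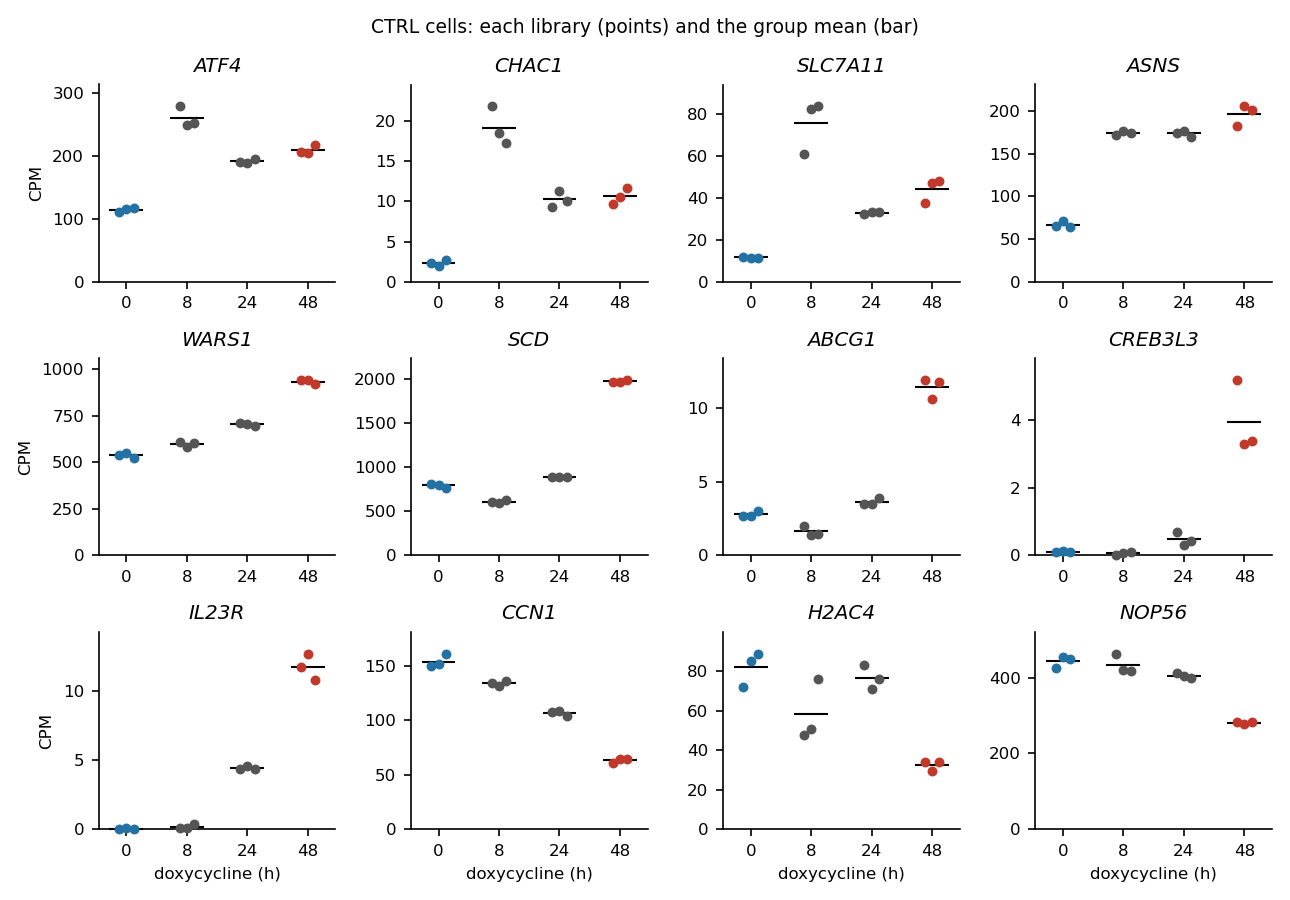
Levels of 12 genes in all CTRL libraries over the time course, in CPM, with hours of doxycycline on the x axis; each point is a library, each bar the mean of 3, and 0 h and 48 h are in blue and red. ATF4, CHAC1 and SLC7A11 were highest at 8 h, WARS1 rose step by step, and SCD, ABCG1 and CREB3L3 were highest at 48 h.

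Lipid genes rose at 48 h after lower or flat values earlier. Of 11 fatty acid synthesis genes, 9 rose and none fell (median 0.44), and the 2 others, FASN (-0.04) and ACLY (-0.06), did not pass the test. SCD, the desaturase that makes monounsaturated fatty acids (ENSG00000099194, chromosome 10, 100347233 to 100364826), had 812, 802 and 766 CPM at 0 h and 1972, 1971 and 1988 CPM at 48 h (log2 fold change 1.31 ± 0.032 (SE), adjusted p = 3.03e-10), the smallest p-value of all genes tested. The 3 wells of each group were close together, and the means between were 607 CPM at 8 h and 888 CPM at 24 h. The desaturase FADS2 (0.80), the acetyl-CoA synthetase ACSS2 (0.77) and SREBF1 (0.61), which encodes the transcription factor SREBP1 that governs this pathway, also rose. All 9 had their highest mean at 48 h.

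Of 22 genes for cholesterol synthesis and uptake, 10 rose and 2 fell (median 0.20). TM7SF2 (0.97), MSMO1 (0.88) and SC5D (0.74), enzymes of the later steps, INSIG1 (0.79), which holds back SREBP processing, and SREBF2 (0.59), which encodes SREBP2, were higher. INSIG1 had 47.8, 44.6 and 42.05 CPM at 0 h and 74.3, 79.5 and 79.1 CPM at 48 h (log2 fold change 0.79 ± 0.061 (SE), adjusted p = 1.39e-06). By a per-gene analysis of variance 4 genes of this list and 3 of the fatty acid list were called higher. The letters TCACNCCAC of the SREBP element were searched in the same promoter windows. They stood in 0 of 9 promoters of fatty acid genes that rose and in 1 of 9 of cholesterol genes that rose. The share among all genes tested was 1.01%.

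The sterol exporters ABCG1 and ABCA1, known targets of the oxysterol receptor LXR, rose more than the synthesis genes. ABCG1 (ENSG00000160179, chromosome 21, 42199689 to 42297244) had 2.63, 2.69 and 3.03 CPM at 0 h and 11.9, 10.6 and 11.7 CPM at 48 h (log2 fold change 2.02 ± 0.12 (SE), adjusted p = 2.24e-07) and ABCA1 6.83, 5.92 and 6.79 CPM at 0 h and 20.1, 18.1 and 17.9 CPM at 48 h (log2 fold change 1.52 ± 0.10 (SE), adjusted p = 3.75e-07), without overlap in either. Of 6 LXR targets and receptors tested, 3 rose and none fell, the third being LPCAT3 (0.45), while the receptor genes NR1H2 (-0.18) and NR1H3 (0.20) did not pass the test. ABCG1 had 1.62 CPM at 8 h and 3.61 CPM at 24 h, so that most of its increase fell between 24 and 48 h.

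Genes that FOXO factors or the glucose sensor MondoA control moved in both directions. Of 12 tested, 6 rose and 3 fell. The FOXO genes FOXO4 (0.93) and FOXO1 (0.87) rose, and CCNG2, a cyclin of non-dividing cells and a FOXO target, had 11.9, 10.5 and 7.99 CPM at 0 h and 22.5, 25.9 and 23.9 CPM at 48 h (log2 fold change 1.25 ± 0.12 (SE), adjusted p = 6.98e-06). TXNIP, the main MondoA target, fell (139, 139.8 and 145 CPM at 0 h and 106, 122 and 115 CPM at 48 h, log2 fold change -0.31 ± 0.054 (SE), adjusted p = 5.38e-04), as did IRS2 (-0.71), an adaptor of the insulin receptor. FOXO1 had 2.63, 2.27 and 2.25 CPM at 0 h and 4.64, 4.23 and 4.27 CPM at 48 h (log2 fold change 0.87 ± 0.15 (SE), adjusted p = 5.99e-04), so that the groups lay apart. The third member that fell was MLXIP (-0.38), which encodes MondoA.

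Of 22 glycolysis genes, 4 rose and 9 fell, and the changes were mostly small. HK2 (-0.58), SLC2A1 (-0.43), ENO1 (-0.43) and ALDOA (-0.32) were lower. HK2, the hexokinase typical of tumour cells, had 214, 227 and 227 CPM at 0 h and 147, 149.6 and 152 CPM at 48 h (log2 fold change -0.58 ± 0.044 (SE), adjusted p = 1.19e-06). ALDOC, an aldolase isoform, stood out with 3.58, 4.49 and 4.54 CPM at 0 h and 18.3, 18.3 and 19.8 CPM at 48 h (log2 fold change 2.15 ± 0.11 (SE), adjusted p = 5.68e-08), in the opposite direction to ALDOA. Of 17 genes of the hypoxia response, 5 rose and 1 fell, with 3 rising when replicate 2 at 0 h was left out. VEGFA, an angiogenic growth factor that both hypoxia and ATF4 can raise, had 49.9, 55.8 and 53.1 CPM at 0 h and 146, 139.7 and 139 CPM at 48 h (log2 fold change 1.42 ± 0.057 (SE), adjusted p = 1.34e-08), whereas ANKRD37 (-1.04) and KDM3A (-0.15) did not pass the test.

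Interferon-stimulated genes were higher at 48 h. Of 22 tested, 11 rose and none fell (median 0.47), and all 11 had their highest mean at 48 h. BST2, the membrane protein tetherin, had 0.672, 0.718 and 0.366 CPM at 0 h and 3.09, 2.47 and 2.21 CPM at 48 h (log2 fold change 2.15 ± 0.29 (SE), adjusted p = 7.70e-05), and PARP14, an ADP-ribosyltransferase of this response, 6.55, 6.52 and 6.95 CPM at 0 h and 20.2, 17.4 and 19.6 CPM at 48 h (log2 fold change 1.51 ± 0.10 (SE), adjusted p = 3.52e-07). In both genes the groups were apart. PARP9 (1.06) with its partner DTX3L (0.45), the antiviral effectors IFI6 (0.82) and IFIT1 (0.79) and the factors IRF1 (0.48) and STAT2 (0.47) rose too. IRF9 (-0.01), OAS3 (0.24) and ISG15 (1.04) did not pass the test. Of 12 genes of MHC class I antigen presentation, 4 rose, among them NLRC5 (1.28), their transcriptional activator, and TAPBP (0.44), and 1 fell.

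The largest increases were found for genes almost silent at 0 h. IL23R, the receptor chain for interleukin 23 (ENSG00000162594, chromosome 1, 67138907 to 67259979), had 0, 0.0598 and 0 CPM at 0 h and 11.7, 12.7 and 10.8 CPM at 48 h, at least 69.8-fold higher when the 0 h wells are set to 3 counts each (edgeR, adjusted p = 7.20e-09). Every 48 h library was above 10 CPM, and the means between were 0.165 CPM at 8 h and 4.43 CPM at 24 h. BTK, a tyrosine kinase of B cells, had 0, 0.0598 and 0.0522 CPM at 0 h and 2.79, 1.70 and 2.42 CPM at 48 h, at least 13.7-fold higher (adjusted p = 4.08e-06), and ENOX1, a cell surface oxidase, 0.0560, 0.0598 and 0 CPM at 0 h and 2.19, 2.41 and 2.16 CPM at 48 h, at least 13.4-fold higher (adjusted p = 1.83e-06). CREB3L3, a membrane-bound transcription factor best known from liver and gut, where it controls lipid genes, had 0.112, 0.120 and 0.104 CPM at 0 h and 5.19, 3.29 and 3.37 CPM at 48 h, at least 23.5-fold higher (adjusted p = 1.04e-06). For these 4 genes a fitted fold change depends on the prior count, and only the bounds are given.

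Next came other genes, of which MMP13 and PLAT were at or near the limit of 3 counts in some 0 h wells. The fitted changes of MMP13 and PLAT are therefore uncertain in size. MMP13, a collagenase, had 0.168, 0.239 and 0.418 CPM at 0 h and 4.34, 4.76 and 4.79 CPM at 48 h (log2 fold change 4.01 ± 0.26 (SE), adjusted p = 3.84e-07), and PLAT, the tissue plasminogen activator, 0.112, 0.359 and 0.157 CPM at 0 h and 2.09, 2.82 and 3.16 CPM at 48 h (log2 fold change 3.66 ± 0.37 (SE), adjusted p = 9.47e-06). Both are secreted proteases. Groups without overlap were a condition for the choice of the 15 largest increases, so that their separation adds no support. GALNT16 (3.00), which starts O-linked glycosylation, HID1 (2.84), a protein of secretory granule formation, SERPINA3 (2.71), an acute-phase protease inhibitor, IGF2 (2.62), a growth factor, and GPD1 (2.56), the cytosolic glycerol-3-phosphate dehydrogenase, followed. The remaining genes of the 15 largest increases were TJP3 (2.51), a tight junction scaffold, FOXO6 (2.45), TSC22D3 (2.42), a glucocorticoid-induced leucine zipper protein, and ULBP1 (2.41), a ligand of the natural killer cell receptor NKG2D. ULBP1 had 2.02, 2.33 and 3.40 CPM at 0 h and 12.5, 15.1 and 14.2 CPM at 48 h, and its means were 8.47 CPM at 8 h and 6.68 CPM at 24 h, both above 0 h and below 48 h.

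Replication-dependent histone genes, which are expressed while DNA is copied, were lower almost without exception. Of 50 tested, 47 fell and none rose (median -0.65). All 4 H1 genes tested fell (median -0.40), as did 13 of 13 H2A genes (-0.81), 14 of 15 H2B genes (-0.47), 6 of 7 H3 genes (-0.84) and 10 of 11 H4 genes (-0.65). H2AC4 (ENSG00000278463, chromosome 6, 26033092 to 26033618) had 72.03, 84.9 and 88.7 CPM at 0 h and 33.8, 29.2 and 33.9 CPM at 48 h (log2 fold change -1.34 ± 0.087 (SE), adjusted p = 3.52e-07) and H2BC3 94.6, 109.9 and 119.7 CPM at 0 h and 39.2, 38.7 and 41.9 CPM at 48 h (log2 fold change -1.44 ± 0.081 (SE), adjusted p = 1.33e-07), with the highest 48 h library below the lowest 0 h library. Together these genes took 0.610 to 0.641% of all counts at 0 h and 0.420 to 0.470% at 48 h. Many of these genes are near-identical copies whose reads the counting could split, so that single members are less certain than the group. By the per-gene analysis of variance 22 were called lower.

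Genes for DNA replication and the G1/S transition fell with the histones. Of 45 tested, 34 fell and 1 rose (median -0.38). RRM2, the regulated subunit of ribonucleotide reductase, had 759, 717 and 738 CPM at 0 h and 437, 485 and 469.9 CPM at 48 h (log2 fold change -0.67 ± 0.042 (SE), adjusted p = 2.58e-07), and MCM7, part of the replicative helicase, 507, 518 and 519 CPM at 0 h and 349, 304 and 328 CPM at 48 h (log2 fold change -0.66 ± 0.05 (SE), adjusted p = 1.18e-06). Both pairs of groups were apart. CCNE2 (-0.69), the cyclin that starts S phase, the epigenetic factor UHRF1 (-0.68), the transcription factors E2F2 (-0.65) and E2F1 (-0.53), FEN1 (-0.63), which trims Okazaki fragments, and the sliding clamp PCNA (-0.48) were lower.

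Of 41 genes of G2 phase and mitosis, 30 fell and none rose (median -0.26). CDC20, the activator of the anaphase-promoting complex, had 399.6, 417 and 412 CPM at 0 h and 259.5, 238 and 252 CPM at 48 h (log2 fold change -0.72 ± 0.045 (SE), adjusted p = 2.95e-07), and all 48 h libraries were below those at 0 h. The kinases PLK1 (-0.58), AURKB (-0.58), AURKA (-0.52) and CDK1 (-0.39), the proliferation marker MKI67 (-0.53), the cyclins CCNA2 (-0.53) and CCNB1 (-0.43), and ANLN (-0.65), a scaffold of cell division, were lower. TTK (-0.06), CENPF (-0.09) and HMMR (0.04) did not pass the test. When changes were tested against a fold of 1.2, 15 replication genes and 14 mitotic genes were called lower. Among inhibitors and D cyclins, CCND3 (-0.59) and CCND1 (-0.46) fell and RBL2 (0.45), a pocket protein of resting cells, rose, while the inhibitor CDKN1A (-0.0039) did not pass the test. A lower mean level per cell and fewer cells in these phases cannot be told apart in bulk RNA.

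Promoters of the genes that fell were searched for the E2F letters TTTNGCGC and for the cell cycle homology region TTTGAA (CHR), on both strands. The E2F letters stood in 12 of 29 lower replication genes (41.4%) against 3.13% of all genes tested and 1.83% of all promoters, and in 10 of 42 lower histone genes (23.8%). The CHR letters stood in 14 of 24 lower mitotic genes (58.3%), in none of the 29 replication genes, and in 16 of 42 histone genes (38.1%), against 9.50% of all genes tested and 15.4% of all promoters. The CHR letters are short, and many promoters hold them. Stretches are shown for 3 replication genes with the E2F letters and 3 mitotic genes with the CHR letters, in capitals, to let the 2 groups be compared.
MCM7 (chr7:100101398-100101422, minus strand): cacgtggggggcgacgTTTCGCGCc
E2F1 (chr20:33686386-33686421, minus strand): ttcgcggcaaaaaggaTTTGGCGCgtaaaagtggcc
POLA2 (chr11:65261893-65261932, plus strand): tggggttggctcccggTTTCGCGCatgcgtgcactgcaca
CDC20 (chr1:43358900-43358937, plus strand): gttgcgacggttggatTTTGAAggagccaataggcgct
PLK1 (chr16:23678844-23678881, plus strand): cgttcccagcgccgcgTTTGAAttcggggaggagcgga
KIF23 (chr15:69414278-69414315, plus strand): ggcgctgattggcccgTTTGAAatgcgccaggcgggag
All 6 genes fell. The log2 fold changes not given above were -0.38 for POLA2, a subunit of DNA polymerase alpha, and -0.54 for KIF23, a kinesin of the central spindle.

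**Figure D3:**
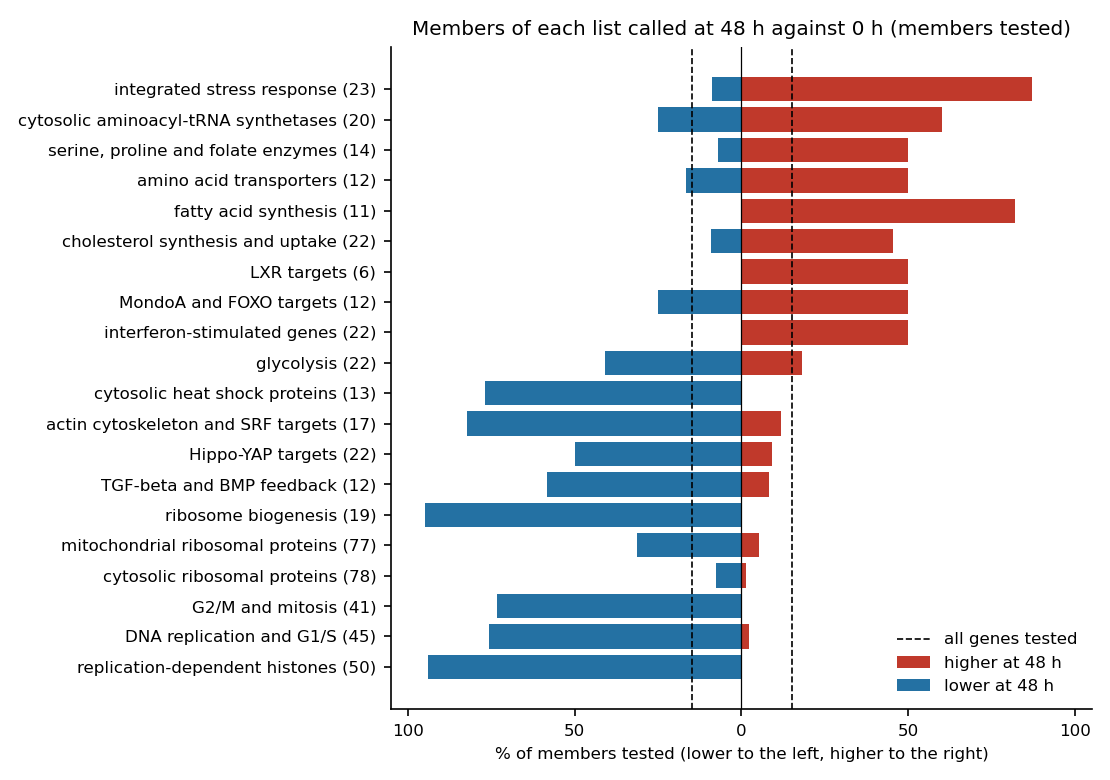
Share of the tested members of each gene list that were called higher (right) or lower (left) at 48 h in CTRL cells, in percent, with the shares over all genes tested (15.2% and 14.7%) as dashed lines. Histones, ribosome biogenesis, heat shock proteins and actin genes lay on the lower side, and the integrated stress response and fatty acid synthesis on the higher side.

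Ribosome biogenesis genes fell as a block. Of 19 tested, 18 fell, none rose and RRN3 (-0.11) did not pass the test (median -0.43). NOP56, a core protein of the small nucleolar particles that methylate ribosomal RNA, had 427, 456 and 449 CPM at 0 h and 284, 277 and 282 CPM at 48 h (log2 fold change -0.66 ± 0.041 (SE), adjusted p = 2.47e-07), NOP58 (-0.49) being its partner. The nucleolar proteins GNL3 (-0.57), NOP2 (-0.55) and DKC1 (-0.49), the polyamine enzyme ODC1 (-0.62) and MYC (-0.50), which drives many of these genes, were lower. MYC had 284, 289.9 and 292 CPM at 0 h and 208, 203 and 202 CPM at 48 h (log2 fold change -0.50 ± 0.041 (SE), adjusted p = 1.79e-06), without overlap of the groups. Of 13 host genes of small nucleolar RNAs, 8 fell and none rose, with 5 falling without TMM scaling, and SNHG12 (-0.80) fell most. The proteins of the finished cytosolic ribosome differed from this. Of 78 genes, 6 fell and 1 rose, and the number that fell was 1 without TMM scaling and 13 without replicate 1 at 48 h.

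Cytosolic heat shock proteins were lower as well. Of 13 tested, 10 fell and none rose (median -0.44). HSPA8, the constitutive chaperone of the HSP70 family, had 2848, 3043 and 2964 CPM at 0 h and 1837, 1926 and 1815 CPM at 48 h (log2 fold change -0.67 ± 0.033 (SE), adjusted p = 4.23e-08). The inducible HSPA1A (-0.69), which has a near-identical neighbour and is therefore uncertain, the cochaperones HSPH1 (-0.54), DNAJA1 (-0.53) and BAG3 (-0.50), and HSP90AA1 (-0.41) fell. HSPB1 (0.03) did not pass the test. Of 28 chaperones and factors of the endoplasmic reticulum, 9 rose and 4 fell. HERPUD1 (0.43) and XBP1 (0.45) rose, and CALR (-0.22), a calcium-binding chaperone there, fell. Besides CREB3L3, its relatives CREB3L1 (0.91) and CREB3L2 (0.35) were higher.

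The 13 protein-coding genes of the mitochondrial genome were at about their 0 h level at 48 h, after a drop. Their summed share of counts was 3.29 to 3.40% at 0 h, 2.61 to 2.70% at 8 h, 2.55 to 2.63% at 24 h and 3.12 to 3.61% at 48 h. Between 48 h and 0 h, MT-ATP6 (0.40) and MT-ATP8 (0.36), which overlap on the same strand, rose and MT-ND6 (-0.87), MT-ND1 (-0.34) and MT-CO1 (-0.27) fell, MT-ATP8 not passing the test without replicate 1 at 0 h (0.28, adjusted p = 0.0113). MT-ND6, the only one of the 13 encoded on the light strand, had 587, 592 and 727 CPM at 0 h and 337, 372 and 338 CPM at 48 h (log2 fold change -0.87 ± 0.072 (SE), adjusted p = 2.25e-06), and its 48 h libraries were all below those at 0 h. Against 24 h, 10 of the 13 were higher at 48 h and MT-ND6 lower.

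Nuclear genes for mitochondria were listed in 3 groups. Of 77 mitochondrial ribosomal proteins, 24 fell and 4 rose (median -0.11), with MRPS12 (-0.71) and MRPL54 (-0.62) the lowest. When tested against a fold of 1.2, 4 were called lower. Of 76 nuclear subunits of the respiratory chain, 5 rose and 4 fell, fewer in each direction than the 15.2% and 14.7% of all genes tested, and the counts varied between 2 and 10 for the rise when single libraries were left out. Of 23 genes of mitochondrial stress and gene expression, 7 fell and 4 rose (median -0.05). Among those that rose, the matrix protease LONP1 (201, 202 and 199 CPM at 0 h and 277, 258 and 274 CPM at 48 h, log2 fold change 0.42 ± 0.044 (SE), adjusted p = 1.32e-05) had groups that did not overlap. The matrix chaperones HSPD1 (-0.32) and HSPE1 (-0.53) fell, and OMA1 (0.16), DELE1 (-0.05) and EIF2AK1 (0.11), which relay mitochondrial stress to eIF2α, did not pass the test.

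Genes of the actin cytoskeleton, many of them targets of the factor SRF, were lower. Of 17 tested, 14 fell and 2 rose (median -0.28). TAGLN, an actin-bundling protein, had 9.75, 9.87 and 11.1 CPM at 0 h and 4.39, 4.64 and 3.63 CPM at 48 h (log2 fold change -1.29 ± 0.12 (SE), adjusted p = 6.43e-06), and ACTG1, cytoplasmic gamma actin, 4220.4, 4211 and 4217 CPM at 0 h and 2857, 2726 and 2906 CPM at 48 h (log2 fold change -0.58 ± 0.03 (SE), adjusted p = 6.17e-08). SRF itself (-0.48), TAGLN2 (-0.61), ACTN4 (-0.48), ZYX (-0.41) and FLNA (-0.39) fell as well. Tested against a fold of 1.2, 5 were called lower.

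Targets of the Hippo effector YAP, which responds to cell density and tension, fell more often than they rose. Of 22 tested, 11 fell and 2 rose (median -0.29). CCN1, a matricellular protein and a classical YAP target (ENSG00000142871, chromosome 1, 85580761 to 85584589), had 149, 151 and 161 CPM at 0 h and 60.5, 64.4 and 64.05 CPM at 48 h (log2 fold change -1.29 ± 0.052 (SE), adjusted p = 1.34e-08). The fall was gradual, with 134 CPM at 8 h and 107 CPM at 24 h, and no 48 h library reached the 0 h range. AMOTL2 (-0.91), FJX1 (-0.77), NT5E (-0.62) and LATS2 (-0.51) fell, CCN2 (-0.70) did not pass the test, and AJUBA (0.39) was one of the 2 that rose. YAP1 (0.10) did not pass the test.

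Other signalling genes moved in smaller numbers. Of 12 TGF-β and BMP feedback genes, 7 fell and 1 rose. ID2, an inhibitor of differentiation and BMP target, had 31.03, 24.8 and 26.3 CPM at 0 h and 11.02, 12.2 and 10.1 CPM at 48 h (log2 fold change -1.31 ± 0.10 (SE), adjusted p = 1.48e-06), and ID3 (-0.68), ID1 (-0.40) and SMAD6 (-0.77) were lower with it. INHBE, a secreted activin chain that is an ATF4 target, rose to 2.04, 2.29 and 2.05 CPM from 0.336, 0.598 and 0.470 CPM (log2 fold change 2.17 ± 0.28 (SE), adjusted p = 5.46e-05). Of 15 immediate-early factors, 5 fell and 2 rose. FOSL1 had 111, 113 and 114 CPM at 0 h and 53.1, 51.1 and 51.7 CPM at 48 h (log2 fold change -1.12 ± 0.05 (SE), adjusted p = 2.44e-08) and JUN 102, 107 and 119 CPM at 0 h and 56.5, 57.00 and 58.2 CPM at 48 h (log2 fold change -0.94 ± 0.062 (SE), adjusted p = 3.84e-07), both AP-1 subunits with groups apart, while JUND (0.68) and EGR1 (0.57) rose.

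Of 25 targets of the antioxidant factor NRF2, 8 fell and 2 rose, OSGIN1 (-1.02), ABCC2 (-0.96), AKR1C1 (-0.76) and HMOX1 (-0.71) being lower and ME1 (0.82) and EPHX1 (0.39) higher, while NQO1 (0.06), GCLM (-0.10) and NFE2L2 (0.04), which encodes NRF2, did not pass the test. Of 17 cytokine and NF-κB genes, 4 fell and 1 rose. The chemokines CXCL1 (-0.93) and CXCL8 (-0.72) and the survival factor BIRC3 (-0.82) were lower, and CXCL1 had 132, 129.5 and 127 CPM at 0 h and 59.9, 76.1 and 69.5 CPM at 48 h (log2 fold change -0.93 ± 0.071 (SE), adjusted p = 1.23e-06). TNFAIP3 (0.01) and NFKBIA (-0.10), direct NF-κB feedback genes, did not pass the test. Of 13 iron genes, 3 rose and 3 fell, among them TFRC (-0.69), the transferrin receptor.

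Of 17 p53 targets, 5 rose and 2 fell. TP53INP1 (1.69) and BBC3 (1.13), a BH3-only death gene, rose, while MDM2 (0.07) and BAX (-0.11) did not pass the test. Of 15 apoptosis regulators, 2 rose and 3 fell, not far from the 15.2% and 14.7% of all genes tested, so that no shift of the list is read from them. The BH3-only genes BMF (2.13) and HRK (1.78) rose, and the survival gene BCL2L1 (-0.55) was among those that fell. BMF had 0.728, 0.598 and 0.418 CPM at 0 h and 3.04, 2.11 and 2.48 CPM at 48 h (log2 fold change 2.13 ± 0.28 (SE), adjusted p = 6.85e-05), without overlap. Of 16 clock genes, 5 rose and 2 fell, with DBP (1.60) and BHLHE40 (1.02) highest and BMAL1 (-0.67) lowest. Of 9 ErbB genes, 4 rose, including the receptor ERBB3 (4.31, 3.17 and 4.39 CPM at 0 h and 9.03, 10.6 and 8.53 CPM at 48 h, log2 fold change 1.23 ± 0.14 (SE), adjusted p = 2.72e-05), and 2 fell, including the ligand HBEGF (-0.67). Of 11 Notch genes, 2 rose, DLL1 (1.73), a ligand, and NOTCH3 (0.72), and 1 fell, not far from the same shares of all genes tested. Of 29 lysosome and autophagy genes, 6 rose and 5 fell, not far from the 15.2% and 14.7% of all genes tested, the protease CTSB (209.6, 209.8 and 202 CPM at 0 h and 388, 366 and 379.6 CPM at 48 h, log2 fold change 0.86 ± 0.042 (SE), adjusted p = 4.23e-08) rising most.

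The zinc, growth and surface genes listed gave mixed counts. Of 18 zinc transporters, 3 rose and 2 fell, close to the 15.2% and 14.7% of all genes tested, SLC30A3 (1.10), a vesicular zinc carrier, rising most. Of 6 metallothionein genes, including their activator MTF1 (-0.36), 3 fell and none rose. Of 13 feedback genes of ERK signalling, 4 rose and 4 fell, from SPRED3 (0.92) to the phosphatase DUSP5 (-0.95). Of 11 Krüppel-like factors, 2 rose, KLF9 (1.09) and KLF15 (0.66), and 5 fell, KLF4 (-0.83) most, with 3 falling without replicate 3 at 48 h. Of 18 integrin, laminin and matrix genes, 6 rose and 1 fell, the fibrillar collagen COL5A1 (1.26) rising most. Of 13 matrix proteases and their inhibitors, 3 rose, MMP11 (0.84) besides MMP13 and PLAT, and 2 fell, not far from the 15.2% and 14.7% of all genes tested.

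Among the largest decreases outside the lists, GLUL, the glutamine synthetase, had 0.672, 1.68 and 8.04 CPM at 0 h and 0.199, 0.646 and 0.421 CPM at 48 h (log2 fold change -3.09 ± 0.84 (SE), adjusted p = 0.00995). This call was lost without replicate 3 at 0 h or without any one of the 48 h wells (adjusted p = 0.0141 to 0.0473), and the log2 fold change without replicate 3 at 0 h was -1.50. FGF1, a fibroblast growth factor, had 3.64, 2.81 and 4.13 CPM at 0 h and 0.548, 0.939 and 1.11 CPM at 48 h (log2 fold change -2.04 ± 0.26 (SE), adjusted p = 5.43e-05), and APLN, the peptide ligand apelin, 1.79, 2.21 and 1.83 CPM at 0 h and 0.499, 0.704 and 0.579 CPM at 48 h (log2 fold change -1.71 ± 0.26 (SE), adjusted p = 2.29e-04). SHH, the Hedgehog ligand, had 16.1, 13.5 and 18.2 CPM at 0 h and 5.93, 6.05 and 5.74 CPM at 48 h (log2 fold change -1.44 ± 0.12 (SE), adjusted p = 2.35e-06). Groups without overlap were a condition for the choice of the largest decreases, so that their separation adds no support. TMEM158 (-1.60), a RAS-induced membrane protein, S100A2 (-1.42), a calcium-binding protein, LPXN (-1.36), a focal adhesion protein, and NAPRT (-1.31), an enzyme of NAD synthesis, completed this group with the histone genes H2BC3, H2AC4 and H3C12 (-1.31), ID2, CCN1, TAGLN and CD68 (-1.39), whose call was lost without replicate 1 or 2 at 0 h or replicate 3 at 48 h (adjusted p = 0.0109 to 0.0135).

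The genes that the study followed for migration were chosen by it from data at 24 h of the same series. In CTRL cells at 48 h, their log2 fold changes lay between -0.41 and 0.30. Of 7, ITGB4 (0.30) rose, ETS1 (-0.41) and AXL (-0.22) fell, and NET1 (-0.13), EGFR (-0.08), MYPN (0.19) and GSN (0.22) did not pass the test, NET1 and GSN passing it without replicate 2 at 48 h. Of all genes tested, 30.0% passed it. The call for ITGB4 was lost without any one of the 0 h wells (adjusted p = 0.02 to 0.0316), and that for AXL without replicate 3 at 48 h (adjusted p = 0.0129). ETS1, a transcription factor, had 59.8, 61.03 and 59.4 CPM at 0 h and 44.2, 47.1 and 44.7 CPM at 48 h (log2 fold change -0.41 ± 0.055 (SE), adjusted p = 7.80e-05), without overlap of the groups. Of 13 genes of epithelial-mesenchymal transition, in the study's panel, COL4A1 (0.40) and SCD (1.31), given there as SCD1, rose and none fell, while CDH1 (-0.06), ZEB1 (-0.05), SNAI1 (-0.28) and VIM (-0.02) did not pass the test. The 2 that rose are close to the 15.2% of all genes tested, and no shift of the panel is read from these counts.

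The gene groups followed different courses before 48 h. As the log2 ratio of each mean (with 0.5 CPM added) to that at 0 h, the median over the integrated stress response genes was 0.99, 0.70 and 0.95 at 8, 24 and 48 h, and over the transporters 0.44, 0.25 and 0.16. Both groups were thus raised by 8 h, and 11 of the 20 stress response genes that rose had their highest mean then. The synthetases gave 0.18, 0.35 and 0.45, a stepwise increase. Fatty acid genes gave -0.20, 0.07 and 0.44, cholesterol genes -0.12, 0.05 and 0.19, and interferon-stimulated genes -0.21, -0.07 and 0.46, all at or below the 0 h level at 8 h and highest at 48 h. Histones gave -0.26, -0.04 and -0.64, ribosome biogenesis genes -0.07, -0.04 and -0.42 and heat shock genes -0.17, -0.05 and -0.44, and 46 of the 47 histone genes that fell had their lowest mean at 48 h. The medians over all genes tested were -0.02, -0.00069 and 0.01.

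**Figure D4:**
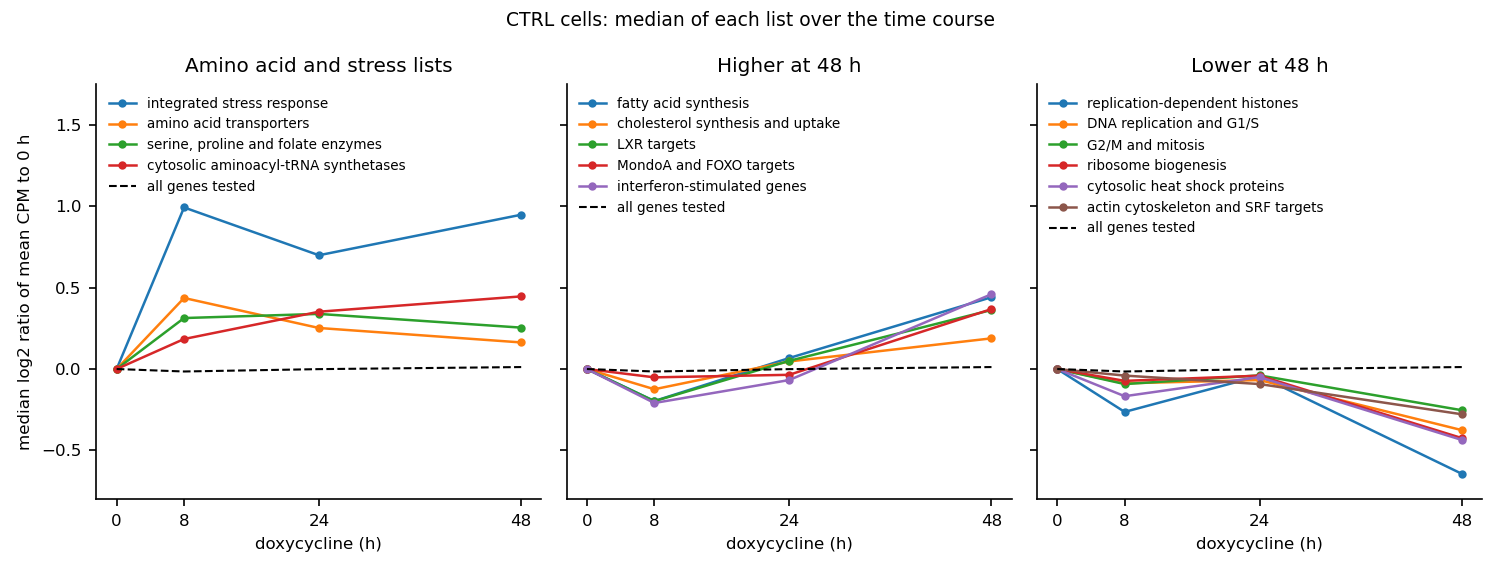
Median log2 ratio to 0 h over the members of each gene list, against hours of doxycycline, in CTRL cells, with all genes tested as a dashed line. The integrated stress response was raised from 8 h on, whereas lipid and interferon genes rose and histone and ribosome biogenesis genes fell mainly between 24 and 48 h.

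Against 24 h, 3621 of 15427 genes (23.5%) differed at 48 h, 1880 higher (12.2%) and 1741 lower (11.3%), and without TMM scaling 62.0% instead of 51.9% of them were higher. The 48 h libraries enter both comparisons, so that their lists are not independent. Without replicate 2 at 24 h 2223 genes were called, and without replicate 1 at 48 h 4867. Fatty acid genes counted 7 of 11 higher, interferon-stimulated genes 13 of 22 higher, histones 48 of 51 lower, ribosome biogenesis genes 18 of 19 lower and heat shock genes 10 of 13 lower. SCD changed by 1.16 ± 0.026, adjusted p = 2.93e-10, and IL23R by 1.40 ± 0.10, adjusted p = 4.44e-06. The integrated stress response counted 8 higher and 2 lower of 23, and the transporters 3 higher and 6 lower of 12, with ATF4 at 0.14 ± 0.039, adjusted p = 0.0176 and SLC7A11 at 0.42 ± 0.087, adjusted p = 0.0026. ASNS gave 0.18 ± 0.049, adjusted p = 0.013, and CHAC1 0.06 ± 0.10, adjusted p = 0.705.

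In the C/EBPδ-inducible line, where doxycycline also induces the CEBPD cDNA, 5952 of 15394 genes (38.7%) differed between 48 h and 0 h, 19.1% higher and 19.5% lower. CEBPD had a mean of 21.5 CPM there at 0 h, above the CTRL values given earlier, and 203.9 CPM at 48 h. The study describes raised CEBPD mRNA without doxycycline in this line as leakiness of the vector. Changes in this line, and the interaction below, therefore start from a raised CEBPD level. The 2 lines share no library. Of 2250 genes that rose in CTRL cells and were tested in both lines, 2137 (95.0%) had a higher estimate in the other line too, 1549 were called higher there and 32 were called lower. Of 2246 that fell, 2112 (94.0%) had a lower estimate, 1727 were called lower and 42 were called higher. Across the 14734 genes tested in both, which share base composition and length, Pearson's r of the fold changes was 0.676 and Spearman's rho 0.694, as a description. The stress response genes gave 20 higher and 3 lower of 24 there, the histones 0 higher and 46 lower of 50, the synthetases 12 higher and 2 lower of 20 and the cholesterol genes 17 higher and 0 lower of 22.

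**Figure D5:**
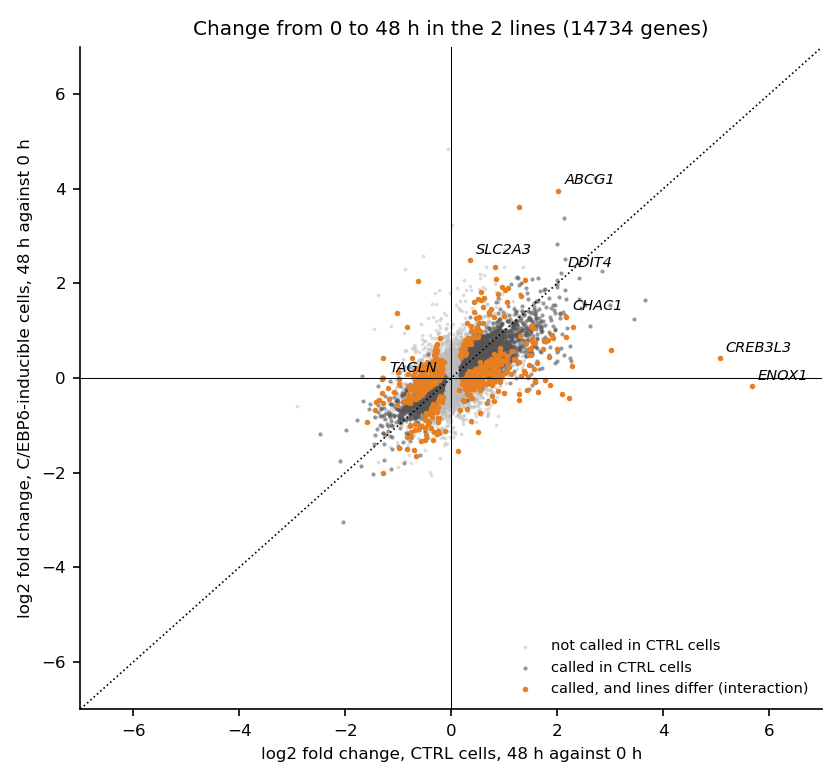
Log2 fold change of 48 h against 0 h in CTRL cells (x axis) and in C/EBPδ-inducible cells (y axis) for 14734 genes tested in both lines, with genes called in CTRL cells in dark grey and those whose interaction was called too in orange. Most points lay along the dotted line of equal change, and CREB3L3 and ENOX1 lay far to the right of it.

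Whether the change over 48 h differed between the lines was tested as an interaction. Of 16306 genes tested, 904 (5.54%) differed, 461 (2.83%) with the higher change in the C/EBPδ-inducible line and 443 (2.72%) with the higher change in CTRL cells. Of the 4583 genes called in CTRL cells, 571 (12.5%) were among them, the same CTRL libraries entering both tests. The synthetases counted 9 of 20 with the higher change in CTRL cells and 2 with the lower, WARS1 changing by 0.79 ± 0.034 in CTRL cells and 0.71 ± 0.03 in the other line (interaction -0.09 ± 0.043, adjusted p = 0.197). CREB3L3 (interaction -4.65 ± 0.44, adjusted p = 8.77e-07) and ENOX1 (interaction -5.85 ± 0.46, adjusted p = 8.19e-08) differed as well, with interaction values that depend on the prior count. In the C/EBPδ-inducible line, both were already present at 0 h and neither change passed the test. Mean levels there were 2.17 CPM at 0 h and 2.96 CPM at 48 h for CREB3L3 (edgeR, adjusted p = 0.0574). For ENOX1 they were 2.92 and 2.61 CPM (adjusted p = 0.452). IL23R was at 0 in all C/EBPδ-inducible libraries at 0 h and 48 h, so that its interaction estimate is not interpretable (adjusted p = 1.00). The actin genes counted 7 of 18 and the glycolysis genes 9 of 22 with the higher change in the C/EBPδ-inducible line and none with the lower, TAGLN changing by -0.0029 ± 0.081 there (interaction 1.28 ± 0.14, adjusted p = 6.46e-06). The ribosome biogenesis genes counted 8 of 19 in the same direction, the cholesterol genes 7 of 22, and the migration genes 7 of 7 in the opposite one. The study chose the migration genes among those that changed with C/EBPδ at 24 h in this series, so that their count is not independent of that choice. None of the 13 mitochondrially encoded genes and 2 of 50 histones passed this test.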

How the data were processed

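RNA-sequencing libraries of CTRL cells at 0 h and 48 h of doxycycline were compared, 3 each. The authors sequenced ribosomal RNA-depleted RNA, used Trimmomatic on the 50-base reads, Hisat2 for alignment to GRCh38 and HTSeq for counting. They deposited raw counts per gene, in whole numbers, for 60675 Ensembl identifiers, without scaling, filter or pooling. The strand setting is not given in the sources used here, and tool versions are not printed because the sources differ. Totals per library were 16976693 to 19943792 counts.

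The quasi-likelihood test of edgeR 4.0.16 was run in R 4.3.3 on TMM-scaled counts after filterByExpr, with Benjamini-Hochberg adjustment over all genes tested and a cut-off of FDR 0.01, the study's cut-off. The study used an analysis of variance, which was run as an alternative on log2(CPM + 1). The other comparisons were CTRL 48 h against 24 h and the interaction of line and time over both lines at 0 h and 48 h. All p-values are two-sided. The smallest two-sided p of an exact permutation test at 3 against 3 is 0.1, and single genes therefore rely on edgeR's shared model. Where no library of a group exceeded 3 counts, the fold is a bound. Gene names and overlaps come from GENCODE 44 (56558 of 60675 identifiers matched, GRCh38), a later annotation than the authors' one, and promoters from RefSeq. Letters of hypoxia and metal response elements were searched in the promoters too and are not reported here. Gene lists are described by counts and medians without a set test. Alternatives were DESeq2 1.42.0, RLE size factors, no TMM scaling, other filters, one fit over all 24 libraries, a block for the replicate number, an FDR of 0.05, a test against a fold of 1.2 and leaving out each library. The tests were tested on simulated data, in which edgeR recovered 82.1% of 195 genes changed 2-fold among 15046, with 2 false calls.

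The members and lists were chosen with earlier results of these data known. The genes named are the 15 protein-coding genes with the largest change in each direction (mean of at least 1 CPM, groups without overlap), up to 4 called members of each list, the C/EBP factors and genes of the study's migration and epithelial-mesenchymal transition panels. Further list members were named after their values were seen, and some genes that the rule names are not reported here. The levels of 8 and 24 h were not tested against 0 h.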

Additional observations from a re-analysis of the deposited data

Results flagged for a closer look

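Of the 260 genes named in the text and tested for an interaction, 84 changed differently over 48 h in the 2 lines at an FDR of 0.01 (edgeR), where 5.54% of all genes tested did. Most of the named genes were chosen for their change in the same CTRL libraries, so that nothing is read from their higher share. The value given for each is the change in log2 expression in the C/EBPδ-inducible line minus that in CTRL cells, and 43 values were positive and 41 negative. The adjusted p lay between 2.39e-10 and 0.00951. Values of genes near 0 counts in a group, such as BTK, CREB3L3, ENOX1, GPD1 and CDH1, depend on the prior count. Among the cytosolic aminoacyl-tRNA synthetases, it was 0.24 for KARS1, -0.20 for LARS1, -0.21 for EPRS1, -0.29 for YARS1, -0.35 for MARS1, -0.38 for GARS1, -0.40 for SARS1, -0.41 for TARS1, -0.41 for AARS1 and -0.59 for CARS1. For the genes outside the lists, it was 0.91 for S100A2, 0.89 for LPXN, 0.77 for SHH, 0.65 for TMEM158, -2.89 for HID1, -3.55 for GPD1, -5.52 for BTK and -5.85 for ENOX1. Among the migration genes followed by the study, it was -0.33 for ETS1, -0.61 for NET1, -0.83 for EGFR, -0.94 for AXL, -0.96 for ITGB4, -1.02 for GSN and -1.37 for MYPN. For the integrated stress response genes, it was 0.68 for TRIB3, -0.38 for CEBPG, -0.43 for PCK2, -0.47 for CEBPB, -0.50 for ASNS and -0.88 for CHAC1. Among the ribosome biogenesis genes, it was 0.50 for MYC, 0.32 for DKC1, 0.30 for NOP58, 0.28 for ODC1 and 0.22 for NOP56. For the TGF-β and BMP feedback genes, it was 0.99 for ID2, 0.79 for ID3, 0.70 for ID1 and -1.30 for INHBE. Among the glycolysis genes, it was 0.37 for HK2, 0.37 for SLC2A1, 0.33 for ALDOA and 0.33 for ENO1. For the Hippo-YAP targets, it was 0.77 for CCN1, 0.45 for LATS2 and 0.40 for AMOTL2. Among the endoplasmic reticulum genes, it was -0.21 for CALR, -0.87 for CREB3L1 and -4.65 for CREB3L3. For the interferon-stimulated genes, it was -0.84 for IFIT1, -0.90 for IFI6 and -1.03 for PARP14. Of single members of the other lists, it was 4.90 for CDH1, 3.21 for CEBPD, 1.93 for ABCG1, 1.28 for TAGLN, 1.24 for EGR1, 1.07 for CDKN1A, 0.89 for MSMO1, 0.89 for TXNIP, 0.82 for BHLHE40, 0.76 for CXCL8, 0.69 for NFKBIA and 0.62 for TFRC. It was 0.59 for MRPL54, 0.53 for AKR1C1, 0.42 for IRS2, 0.41 for SCD, 0.40 for RRM2, 0.39 for CCND1, 0.36 for BCL2L1, 0.28 for ACTG1, 0.27 for HSPA8, 0.22 for NQO1, -0.32 for COL1A2 and -0.42 for PHGDH. It was -0.42 for KLF4, -0.66 for CTSB, -0.74 for ABCA1, -0.96 for SPRED3, -1.08 for SLC7A11, -1.12 for DLL1 and -1.63 for NLRC5.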

How the results depend on the processing

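The count of 4583 genes between 48 h and 0 h was 4322 with DESeq2, 4640 with RLE size factors, 4712 without TMM, 5437 without the filter on low counts, 4464 with at least 10 counts in every library, 5711 in a model of all 24 libraries and 6586 at an FDR of 0.05. An analysis of variance of each gene on log2(CPM + 1) called 1659, and a test against a fold of 1.2 called 1775. In simulated data with 195 of 15046 genes changed 2-fold, edgeR recovered 82.1% and that analysis of variance 4.62%. Far fewer genes changed there than were called here, which makes the adjusted cut-off stricter. These shares therefore do not carry over to the counts above. Leaving out 1 library gave 3105 to 5279 genes. Between 48 h and 24 h, the 3621 genes became 858 with the analysis of variance, 5692 at an FDR of 0.05 and 932 against a fold of 1.2, and 2223 to 4867 without 1 library. The 904 genes of the interaction became 1666 and 266 under the last 2 settings, and 625 to 1179 without 1 library. With the replicate block, 3549, 3195 and 774 genes were called in the 3 comparisons. The deviations of same-numbered 48 h and 0 h libraries correlated at -0.22, -0.11 and 0.026, 0 of the 6 libraries correlated best with the library of its own number, and the numbers were not taken as pairs. Of 5209 log2 fold changes of named genes under these settings, 4922 kept their side of the threshold, 261 lost their call, 26 gained one and no called value turned direction. Values called in neither fit may have changed sign and are counted among the 4922. Of 496 counts of list members, 70 moved by more than 1.5 times, mainly under the analysis of variance and the test against a fold of 1.2. A gene under 3 counts in every library of a group gives only a bound at this depth, and the cause of the differences between settings was not tested.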
